A study of Mus musculus with 2 samples.

Results

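Smooth muscle contractile and pericyte genes were described in whole mouse adrenal gland as a group of 10 genes, taken from a list by symbol and matched to the gene IDs of GENCODE M21, out of 55536 annotated genes. The contractile genes were Acta2, Actg2, Tagln, Myh11, Cnn1, Myl9, Smtn, Lmod1 and Des, and the pericyte gene was Rgs5. All 10 were found in both libraries. The RNA came from the adrenal glands of 2 male B6CASTF1/J mice, adults of 8 to 10 months and F1 hybrids of C57BL/6J and CAST/EiJ. The labels name 1 group and number the animals as biological replicates 1 and 2 (animal 2 and animal 4 of the submitters). Both libraries started from 300 ng of RNA, were made with a directional kit, which keeps the strand of the RNA, and carried ERCC spike-ins, synthetic RNAs added in known amounts. No treatment, time point or second genotype was named, so each gene was compared with the others within a gland and between the glands.

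The gland combines a steroid-producing cortex with a catecholamine-producing medulla, both served by a dense bed of blood vessels. In smooth muscle, actin filaments slide along smooth muscle myosin when calcium and calmodulin activate the kinase that phosphorylates the regulatory light chain of the myosin, and calponin, transgelin, smoothelin and leiomodin bind or build the actin filaments. Pericytes are the mural cells of capillaries and small venules, and they share part of this gene set with smooth muscle. Many contractile genes carry CArG boxes, the DNA element bound by serum response factor (SRF) with its coactivators of the myocardin family.

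Replicate 1 held 29994901 and replicate 2 held 33987434 expected counts on annotated genes. The defining genes of the labelled tissue were high in both glands, at 1712 to 6855 TPM (the share of all transcripts after division by transcript length, scaled to a fixed total) for the cortical genes Star, Cyp11a1, Cyp11b1 and Hsd3b1. The medullary genes were lower in replicate 2 in TPM, with Th at 514 and 256, Dbh at 244 and 195, Pnmt at 363 and 78.0, and Chga at 1205 and 1004. The libraries also stood apart in fat cell genes. All 11 adipocyte markers examined were at least 2-fold higher in replicate 2 by the rule given below, beside 2.40% of all 12853 nuclear genes tested. Their summed level was 269 TPM in replicate 1 and 2423 TPM in replicate 2. Among the markers of brown fat, Ucp1, named because its ratio was the largest of that list, was at 0.14 and 80.6 TPM. The part of these differences in the results below was not tested.

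The contractile and pericyte genes spanned a wide range of levels, from Tagln, the highest, to Actg2, with 5 reads in all. Among nuclear coding genes Tagln stood at percentile 95.6 in replicate 1 and 88.5 in replicate 2. Of the 10 genes, 7 were detected, which here means at least 1 TPM in both animals. The median over the 10 genes was 7.96 TPM in replicate 1 and 10.0 TPM in replicate 2 (9.00 ± 1.47, SD, n = 2 animals). For scale, the 12385 nuclear coding genes detected in both animals had medians of 12.6 and 13.7 TPM. The summed level of the 10 genes was 174 TPM in replicate 1 and 115 TPM in replicate 2. Acta2 and Tagln made up 60.9% of that sum in replicate 1 and 41.4% in replicate 2. Without them, the sum of the other 8 genes was almost level, at 68.2 and 67.2 TPM. Within that sum single genes differed in both directions. Rgs5 was higher in replicate 2, at 9.88 and 16.8 TPM, and Myl9 was lower, at 26.4 and 18.1 TPM.

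**Figure D1:**
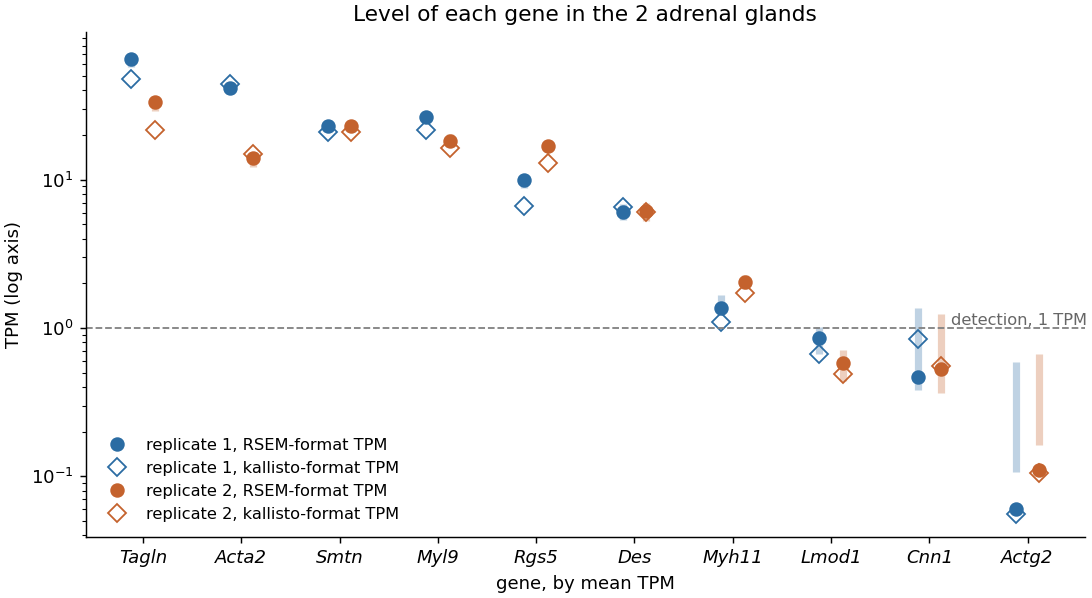
Level of each of the 10 genes in replicate 1 and replicate 2, in TPM on a log axis, with genes ordered by mean TPM. Filled circles are the deposited RSEM-format values, pale bars their deposited 95% credibility bounds and open diamonds the kallisto-format values. Tagln and Acta2 lie higher in replicate 1, Rgs5 lies higher in replicate 2, and Lmod1, Cnn1 and Actg2 lie under the dashed line at 1 TPM.

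By mean TPM the order was Tagln, Acta2, Smtn, Myl9, Rgs5, Des, Myh11, Lmod1, Cnn1 and Actg2. The gaps from Tagln to Acta2, from Acta2 to Smtn and from Smtn to Myl9 were smaller than the larger SD over animals of each pair, although Tagln lay above Acta2 in both animals. From Myl9 downward each gap was larger than that spread, and each such pair kept its order in both animals. The order of Acta2 and Smtn, and of Smtn and Myl9, differed between the animals. The order of Lmod1 and Cnn1 turned in the kallisto-format values, where Cnn1 was at 0.848 and 0.557 TPM and Lmod1 at 0.668 and 0.487 TPM.

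Between the glands the genes did not differ in 1 direction. Acta2 and Tagln were lower in replicate 2 by more than 2-fold, Lmod1, Myl9, Des and Smtn were lower by less, and Rgs5 and Myh11 were higher. Folds are ratios of counts scaled by TMM, a factor that removes differences in library size and composition, and each is given with an exact 95% interval that covers counting error only. With 1 animal on each side there is no replicate check of any such difference, and no p-value was computed. A difference was counted at 2-fold or more with an interval that excludes equality, among nuclear genes whose mean count reached 100. By this rule 2 of the 7 genes with enough counts were lower in replicate 2, beside 1.10% of all 12853 nuclear genes. None of the 7 was higher, beside 2.40% of all genes. The log2 ratio was taken on CPM + 1, where CPM is the count scaled to a fixed library total. Its median over the 10 genes was -0.27, with 3 genes above 0 and 7 below, whatever their counts. Of these, Actg2 above 0 and Cnn1 below 0 had intervals that included equality. Over the 7 genes with enough counts the median was -0.32, with 2 above 0 and 5 below. That of all 12853 genes tested was 0.012, with 6710 above 0 and 6143 below. In whole tissue, fewer cells of a type and less RNA per cell cannot be told apart.

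**Figure D2:**
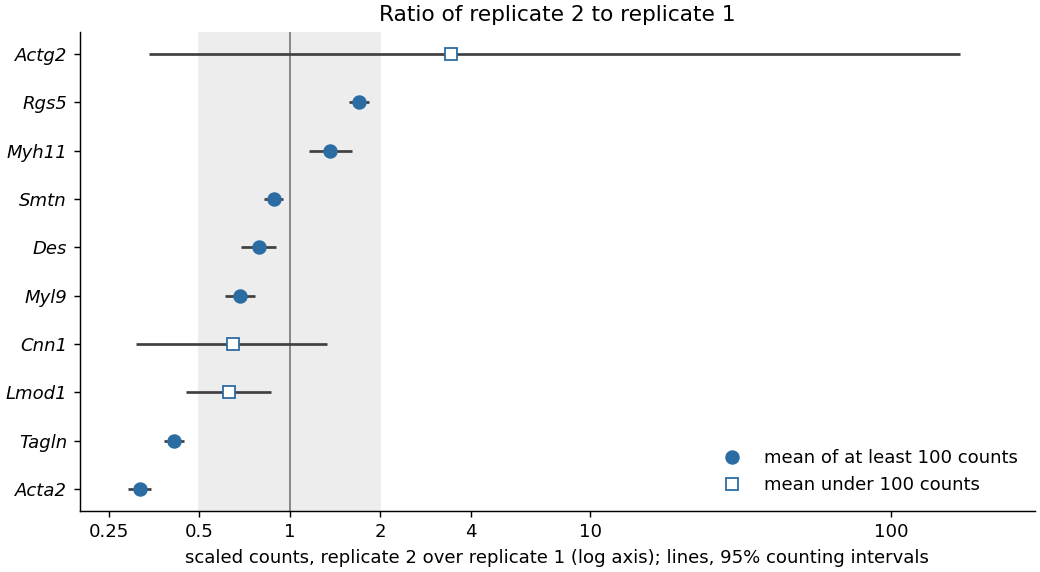
Ratio of scaled counts, replicate 2 over replicate 1, for each of the 10 genes on a log axis, with exact 95% counting intervals as lines. Filled circles are genes whose mean count reached 100, open squares are genes below it, and the grey band spans ratios within 2-fold. Acta2 (3.16-fold lower) and Tagln (2.43-fold lower) lie outside the band, and the interval of Actg2 runs from 0.340 to 169 because it rests on 5 reads.

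Acta2 encodes smooth muscle alpha-actin, the actin isoform of contractile filaments in vascular smooth muscle (chr19:34241090-34255590 of mm10, minus strand). It was at 41.4 TPM in replicate 1 and 13.98 TPM in replicate 2, from 1891 and 697 counts. Among nuclear coding genes this placed it at percentile 91.9 in replicate 1 and 72.3 in replicate 2. The scaled count was 3.16-fold lower in replicate 2 (95% interval 2.89 to 3.45), which was the largest difference among the 7 genes with enough counts. The other actins did not follow at that size. Actb, a cytoplasmic actin of all cells, was at 1537 and 1294 TPM, and Actg1, the other cytoplasmic actin, was at 782 and 548 TPM (0.799 and 0.648 of replicate 1 as scaled counts). The level of Actb was thus 37.1 times that of Acta2 in replicate 1 and 92.6 times in replicate 2.

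Actg2, the gamma-actin of visceral smooth muscle (chr6:83512905-83536265, minus strand), had 1 count in replicate 1 and 4 in replicate 2, or 0.060 and 0.11 TPM. Its interval for the ratio was 0.340 to 169, so no difference was detectable at this depth. Acta1, the skeletal muscle actin, was at 0.58 and 1.65 TPM, and Actc1, the cardiac actin, was listed at 0 in both gene tables. The coding sequence of Acta2 was 84.2% identical to that of Actg2 and 85.4% identical to that of Acta1. Even so, of the 2005 distinct stretches of 31 bases in the main Acta2 transcript only 1.496% occurred in a transcript of another gene, most of them in Actg1.

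Tagln encodes transgelin, also called SM22-alpha, an actin-binding protein of smooth muscle (chr9:45929619-45936058, minus strand). Its level was 64.8 TPM in replicate 1 and 33.4 TPM in replicate 2, from 2049 and 981 counts, and the scaled count was 2.43-fold lower in replicate 2 (95% interval 2.25 to 2.62). It was the highest of the 10 genes in both glands. Its relatives Tagln2, at 26.2 and 27.9 TPM, and Tagln3, at 1.88 and 1.81 TPM, had ratios of 1.07 and 0.888. On the opposite strand, the antisense gene Gm48529 lies within Tagln and held 71 and 79 counts, and Pcsk7, a proprotein convertase, overlaps its 3' end by 108 bases and held 949 and 1161 counts. Whether the counting used the strand that the kit keeps is stated in no source used here, so reads from the overlaps may be shared.

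Cnn1 encodes calponin 1, which binds actin and restrains the myosin motor (chr9:22099216-22109630, plus strand). It stood at 0.47 and 0.53 TPM, from 20 and 15 counts, and the interval of the ratio, 0.307 to 1.32, included equality. Its relatives were far more abundant, Cnn3 at 144 and 105 TPM and Cnn2 at 23.7 and 13.5 TPM. Cnn2, a calponin of many nonmuscle cells, was 0.482 of its replicate 1 value (95% interval 0.439 to 0.528), and it was no longer past 2-fold with spike-in totals or kallisto-format counts. Cnn3 was at 0.680 of it.

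The genes of the myosin motor did not share a direction. Myh11 encodes the smooth muscle myosin heavy chain, the marker most used to tell mature smooth muscle from other cells with Acta2 (chr16:14194535-14291372, minus strand). It was at 1.36 TPM in replicate 1 and 2.03 TPM in replicate 2, from 245 and 389 counts, and was 1.37-fold higher in replicate 2 (95% interval 1.16 to 1.61). As a result the TPM of Acta2 was 30.4 times that of Myh11 in replicate 1 and 6.89 times in replicate 2. The kallisto-format values gave 40.3 and 8.63. For Tagln over Myh11 the ratios were 47.6 and 16.4. The nonmuscle heavy chain Myh9 stood at 167 and 133 TPM, Myh10 at 19.96 and 22.4 TPM and Myh14 at 2.94 and 2.93 TPM, so Myh11 was the lowest of the 4 in both glands.

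Myl9 encodes the regulatory light chain that is phosphorylated to start contraction (chr2:156775420-156781658, plus strand). It was at 26.4 and 18.1 TPM, from 706 and 561 counts, and was 1.46-fold lower in replicate 2 (95% interval 1.31 to 1.64). Its nonmuscle relative Myl12a was at 97.2 and 111 TPM with a ratio of 1.04, and the essential light chain Myl6 was at 274 and 283 TPM with a ratio of 0.945. Myl12b has 2 gene entries, at 66.2 and 70.2 TPM and at 17.2 and 14.2 TPM, and Myl6b was at 2.96 and 3.93 TPM. The coding sequence of Myl9 was 85.6% identical to that of Myl12a, but only 0.455% of its 31-base stretches occurred in another gene.

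Smtn encodes smoothelin, a protein of contractile actin filaments (chr11:3517523-3540612, minus strand). It was nearly level, at 23.1 and 22.9 TPM from 1468 and 1512 counts, with a ratio of 0.886 (95% interval 0.824 to 0.952). Its relative Smtnl2 was at 0.52 and 2.80 TPM, 3.42 times as high in replicate 2 (95% interval 2.43 to 4.89), while Smtnl1 was listed at 0 in both. Lmod1, leiomodin 1, which starts actin filaments in smooth muscle (chr1:135324807-135368065, plus strand), was at 0.85 and 0.58 TPM from 92 and 67 counts, with a ratio of 0.626 (95% interval 0.450 to 0.867). Lmod2 was listed at 0 in both glands and Lmod3 had no count in replicate 1 and 4 in replicate 2.

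Des encodes desmin, the intermediate filament of muscle (chr1:75360329-75368579, plus strand). Its TPM was level, at 6.04 and 6.11, while its counts were 472 and 432 and the scaled ratio was 0.787 (95% interval 0.689 to 0.898). The kallisto-format TPM was 6.53 and 6.08. In the RSEM-format tables the short transcript Des-202, of 835 bases against 3028 for Des-201, took 6.31% of the gene's TPM in replicate 1 and 19.9% in replicate 2, and TPM divides by length. Vim, the intermediate filament of mesenchymal cells, endothelium and fat cells, was at 32.5 and 108 TPM, 2.88 times as high in replicate 2 (95% interval 2.71 to 3.05). Vim was therefore 5.38 times Des in replicate 1 and 17.7 times in replicate 2. The other 2 filaments examined, Synm at 3.53 and 3.75 TPM and Nes at 4.50 and 2.67 TPM, had ratios of 1.02 and 0.614.

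Rgs5 encodes a regulator of G protein signalling that shortens the response to vasoconstrictors and marks pericytes in many tissues (chr1:169655501-169695813, plus strand). It was at 9.88 TPM in replicate 1 and 16.8 TPM in replicate 2, from 1006 and 1983 counts, and was 1.69-fold higher in replicate 2 (95% interval 1.57 to 1.83). It was the largest difference upward among the 7 genes with enough counts, and it stayed under 2-fold. Acta2 stood at 4.19 times the TPM of Rgs5 in replicate 1 and at 0.833 times in replicate 2, so the order of the 2 genes turned between the glands. Its relatives Rgs2, at 97.1 and 107 TPM, Rgs3, at 15.9 and 16.6 TPM, and Rgs4, at 19.2 and 18.1 TPM, had ratios of 1.06, 0.910 and 0.943. Rgs16 was at 1.23 and 0.98 TPM, Rgs1 at 0.90 and 0.86 TPM, and Rgs8, Rgs13, Rgs18 and Rgs21 were each under 1 TPM.

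Most other pericyte markers were also above equality. Of 15 markers other than Rgs5, 11 were detected, and of the 11 with enough counts 9 had ratios above 0 on the log2 scale, with a median of 0.60, beside 6710 of all 12853 genes. The 3 most abundant were Ndufa4l2, at 23.2 and 24.0 TPM, Mcam, at 15.2 and 26.3 TPM, and Rgs4. Mcam, Rgs4 and Notch3 also stand in another of the lists. At least 2-fold higher were 3 of the 11, beside 2.40% of all genes. These were Steap4, at 5.08 and 22.0 TPM, Cspg4, the proteoglycan NG2, at 1.58 and 5.59 TPM, and Kcnj8, a pore subunit of the vascular potassium channel closed by ATP, at 1.56 and 4.39 TPM. They are named because they passed, that is, after their values were seen. The receptor Pdgfrb was at 9.19 and 14.3 TPM. Of the 10 fibroblast markers, led by Dcn, Col1a2 and Col3a1, all 10 had log2 ratios above 0, with a median of 0.64, and 3 were at least 2-fold higher, beside the same shares. The 10 endothelial markers, led by Plvap, Egfl7 and Emcn, had a median of -0.11 and none was past 2-fold, and their summed level was 453 and 449 TPM. Single markers parted, with Flt1 at a ratio of 0.677 and Cdh5 at 1.42. The adipocyte markers had a median of 3.02. Some of these pericyte and fibroblast markers are expressed by fat tissue too, and the part of the fat cell signal in their ratios was not tested.

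**Figure D3:**
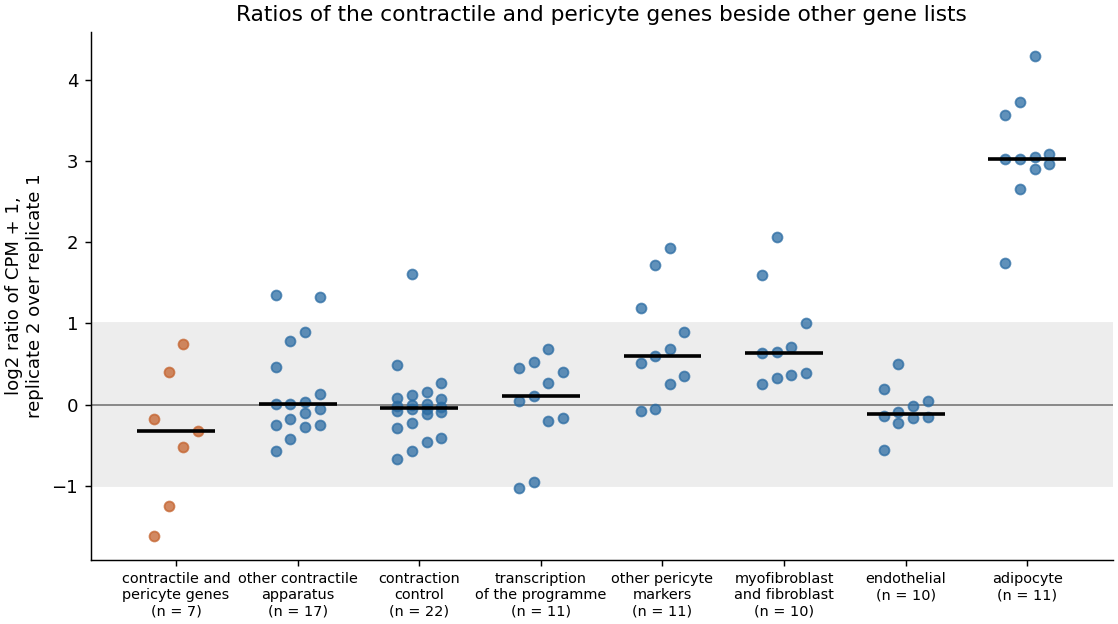
Log2 ratio of CPM + 1, replicate 2 over replicate 1, for each gene whose mean count reached 100, with genes grouped by list and black lines at list medians. The grey band spans ratios within 2-fold. The contractile and pericyte genes have a median of -0.32 over 7 genes, the other pericyte markers 0.60 over 11 and the adipocyte markers 3.02 over 11.

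The median ratio of the rest of the contractile apparatus was near equality, but not every gene of it differed less than Tagln. Of 18 further genes of the apparatus 17 were detected, and the 17 with enough counts had a median log2 ratio of 0.013. None of these was at least 2-fold lower, beside 1.10% of all genes, and 2 were at least 2-fold higher, beside 2.40% of all genes. The most abundant were Tpm1, a tropomyosin, at 102 and 91.7 TPM, Flna, filamin A, at 90.0 and 74.2 TPM, and Vcl, vinculin of adhesion sites, at 56.3 and 62.6 TPM. Among those at least 2-fold higher was Synpo2, an actin-binding protein of muscle, at 3.78 and 7.92 TPM, which is named after its values were seen. Of 26 genes that control contraction, 22 were detected, with a median log2 ratio of -0.043 over 22 genes tested. The highest were Agtr1a, the angiotensin receptor, which the aldosterone-producing zone also uses, at 181 and 123 TPM, Npr1, a receptor of natriuretic peptides, at 151 and 147 TPM, and Rhoa, the GTPase that sensitises the filaments to calcium, at 109 and 118 TPM. Only Adra1a, an alpha-1 adrenergic receptor, was past 2-fold, 1 of 22 beside 2.40% of all genes that were higher, at 0.47 and 2.16 TPM, and it is named for that reason.

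Regulators of contractile gene transcription lay on both sides of equality. Of 18 genes 12 were detected, and the 11 with enough counts had a median log2 ratio of 0.11, with 7 above 0 and 4 below. The most abundant were Mef2d, at 37.6 and 33.4 TPM, Gata6, at 34.2 and 32.8 TPM, and Mef2c, at 20.1 and 30.7 TPM. Klf4, a repressor of smooth muscle genes in cultured cells, was the only 1 of the 11 past 2-fold, beside 1.10% of all genes that were lower, at 10.1 and 5.15 TPM with a ratio of 0.473 (95% interval 0.420 to 0.531). Srf itself, singled out after its values were seen, was at 23.3 and 13.1 TPM, with a ratio of 0.508 (95% interval 0.465 to 0.555). Its coactivators Mrtfa, at 13.9 and 13.4 TPM, and Mrtfb, at 17.4 and 21.01 TPM, had ratios of 1.08 and 1.21. Myocd, myocardin, had 5 and 10 counts, and the interval of its ratio, 0.535 to 6.41, included equality.

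Markers of striated muscle were at or near 0. Of 12 skeletal muscle markers 1 was detected in both glands, Mylpf at 2.04 and 2.30 TPM, and Ckm, Mb, Myh2, Myh4 and Myog were listed at 0. None of 10 cardiac markers was detected in both, and Actc1 and Myh7 were listed at 0. The summed levels were 3.25 and 5.25 TPM for skeletal and 2.19 and 2.27 TPM for cardiac markers.

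Because SRF acts through CArG boxes, promoter windows of the genes were searched for them. The windows come from RefSeq on GRCm38.p6 and run from 250 bases before to 50 bases after the RefSeq start of the gene, and 7 of the 10 genes have 1. A CArG box is CC, then 6 bases that are each A or T, then GG, and its form is the same on both strands. It occurred in 1.63% of 32851 mouse windows and in 1 of the 7, that of Myl9. With 1 of the 6 central bases allowed to be G or C it occurred in 9.98% of windows and in 2 of the 7, those of Acta2 and Myl9. At least 2 such matches stood in 0.822% of windows, and Acta2 and Myl9 both had 2. A match describes letters only. The windows of Lmod1, Des, Smtn, Cnn1 and Rgs5 held neither form. Tagln, Actg2 and Myh11 have no window and were not searched. Shown first is Myl9, the 1 window with a full CArG box, from 206 bases before its GENCODE start (chr2:156775214-156775419, plus strand) with its matches in capitals. They begin 161 and 99 bases before the RefSeq start.
Myl9: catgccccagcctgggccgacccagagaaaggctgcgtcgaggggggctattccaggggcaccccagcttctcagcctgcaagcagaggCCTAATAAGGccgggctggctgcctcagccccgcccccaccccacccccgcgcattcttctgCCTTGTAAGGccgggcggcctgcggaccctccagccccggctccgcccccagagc

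For Acta2, the other window with matches, only stretches of 30 bases around the matches are shown, because the first exon of Acta2-201 in GENCODE M21 reaches over both. The matches begin 84 and 34 bases before the RefSeq start and are in capitals. The stretches, read on the minus strand, lie at chr19:34255438-34255467 and chr19:34255388-34255417. Each match has 1 central base that is not A or T.
Acta2, farther match: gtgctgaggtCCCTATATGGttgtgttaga
Acta2, nearer match: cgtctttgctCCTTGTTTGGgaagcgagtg

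The window of the pericyte gene Rgs5 held no CArG box by either definition, and the 250 bases before its start (chr1:169655251-169655500, plus strand) are shown beside those of the contractile genes.
Rgs5: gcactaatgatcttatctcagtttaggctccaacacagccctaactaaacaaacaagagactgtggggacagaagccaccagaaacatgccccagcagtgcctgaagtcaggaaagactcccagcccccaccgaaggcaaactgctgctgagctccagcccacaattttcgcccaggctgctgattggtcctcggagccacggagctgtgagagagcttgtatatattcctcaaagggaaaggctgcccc

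The letters CATTCC, on either strand, the core of the MCAT element bound by TEAD factors, stood in 14.7% of all windows and in 3 of the 7, those of Acta2, Lmod1 and Smtn. The windows of Cnn1, Des and Rgs5 held neither motif.

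At the transcript level the same transcript led in both animals for 8 of the 10 genes. The exceptions were Cnn1 and Actg2, which had few reads. Acta2-201, the full-length form with 9 exons, took 74.8% and 76.9% of the gene's TPM, and the shorter Acta2-202, which starts farther downstream, took 25.2% and 23.1%. The kallisto-format tables gave Acta2-201 only 51.5% and 56.6%, so the split between the 2 forms was not settled by these data. Tagln-201 took 69.0% and 57.1%, and Tagln-202, a fragment of 369 bases, took 28.5% and 41.6% by the RSEM-format tables but 12.1% and 14.2% by the kallisto-format tables. In counts, Tagln-201 held 1872 and 857 and Tagln-202 held 139 and 112. Tagln was the gene whose 2 quantifications lay farthest apart in replicate 2, with the RSEM-format level 1.55 times the kallisto-format level. In all, 8 of the 10 genes agreed within 1.5-fold in both animals, and the other exception was Cnn1, at 0.566 in replicate 1.

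Myh11 is spliced into forms that differ in the motor head and in the tail of the myosin. Myh11-201, without either optional exon, took 86.7% of the gene's TPM in replicate 1 and 60.7% in replicate 2. Myh11-204, which carries an exon of 21 bases in the head, the SM-B form of fast smooth muscle, took 13.3% and 21.7%. Myh11-202 carries an exon of 39 bases that ends the protein early and gives the shorter SM2 tail. It took 0% in replicate 1 and 17.7% in replicate 2, from 66.1 counts. That 0% comes from dividing reads that fit more than 1 form, so it does not show that the form was absent. By posterior mean TPM the share of Myh11-201 was lower, at 71.05% in replicate 1 and 55.2% in replicate 2. The kallisto-format shares were 84.6% and 47.1% for Myh11-201, 15.4% and 32.5% for Myh11-204 and 0% and 20.3% for Myh11-202. In the annotation the 3 forms also end at different places, with Myh11-201 reaching to 14194535, Myh11-204 to 14194648 and Myh11-202 to 14194900. The shares therefore rest on the optional exons and on reads near the ends, out of 245 and 389 counts for the whole gene, and are rough. The 2 optional exons are shown because they set the protein forms apart, each read on the minus strand of mm10, at chr16:14248580-14248600 and chr16:14198050-14198088. Capitals mark the stop codon, which shortens the coding sequence from 5919 to 5817 bases, while the 21-base exon keeps the frame and lengthens it to 5940.
Myh11-204 exon: caaggtccatcttttgcctac
Myh11-202 exon: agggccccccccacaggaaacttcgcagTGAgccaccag

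Among the other genes, Rgs5-201 took 89.2% and 97.9% of its gene's TPM and Rgs5-202 took 10.8% and 2.13%, while Myl9-201 took 90.8% and 100% and Lmod1 has a single transcript. Smtn-202, a long form, took 36.6% and 50.4%, and Smtn-203, another long form, took 23.1% and 5.94%, a shift that the kallisto-format tables also gave, from 11.5% to nearly 0%. Smtn-205 took 12.8% and 15.8%, and Smtn-206, a noncoding form, took 16.8% and 15.04%. Smtn-201, which starts within the gene, took 6.32% and 7.16%. Des-202, a retained intron, took 6.31% and 19.9% by the RSEM-format tables and 36.6% and 40.5% by the kallisto-format tables, beside Des-201 at 93.7% and 73.8%. In Cnn1 the leader was Cnn1-201 in replicate 1, at 59.0%, and the noncoding Cnn1-204 in replicate 2, at 67.4%, from 17.9 and 5.84 counts. Cnn1-202 took 31.3% in replicate 1, from 1.12 counts, and 0% in replicate 2, and Cnn1-205 took 9.70% and 10.9%. By the kallisto-format tables Cnn1-202 led in replicate 1, at 61.5% beside 24.3% for Cnn1-201, and Cnn1-204 led in replicate 2, at 79.9%. The leader of Cnn1 in replicate 1 was therefore not settled. Actg2-204 took its gene's single read in replicate 1 and Actg2-202 the 4 reads in replicate 2.

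**Figure D4:**
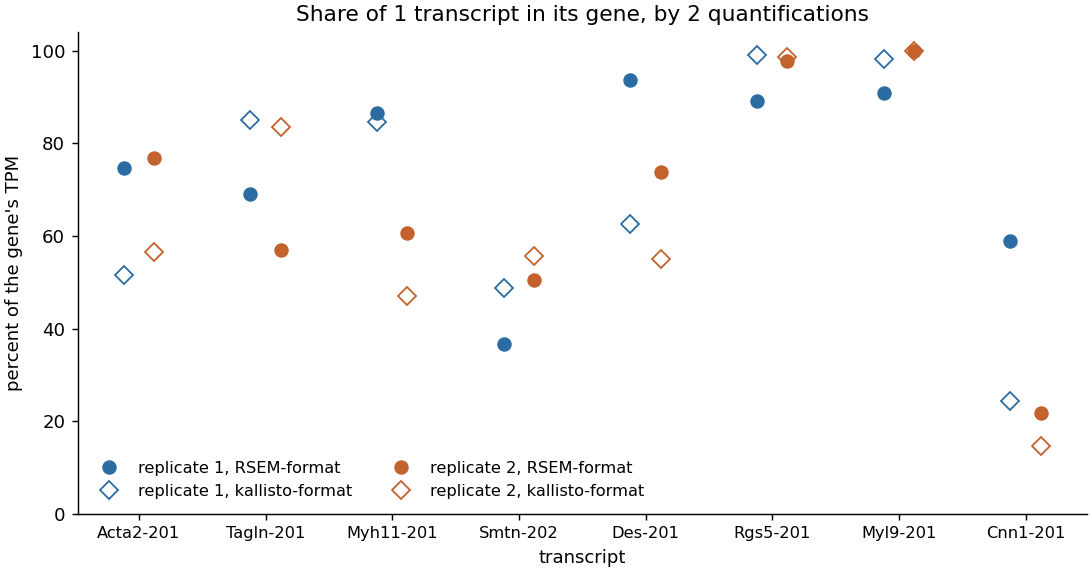
Percent of a gene's TPM taken by 1 of its transcripts in replicate 1 and replicate 2, for 8 transcripts, with filled circles for the RSEM-format and open diamonds for the kallisto-format tables. Rgs5-201 and Myl9-201 lie near 100% by both, whereas Acta2-201 lies at 74.8% and 76.9% by the first and 51.5% and 56.6% by the other.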

How the data were processed

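Gene tables in RSEM format give expected counts, TPM, posterior means and credibility bounds of TPM, per the file headers. The posterior columns, recorded as signal values, were used as deposited. Transcript tables add IsoPct, the percent of a gene's TPM, per the file headers. A separate table for each library, with kallisto's column names, gives its own estimated counts and TPM of transcripts, as deposited. The accompanying text names mm10 with GENCODE M21; no source used here gives versions of the aligner or quantifiers. The authors quantified each library alone. CAST/EiJ alleles were counted on a reference of the other parent strain.

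Levels are the deposited TPM. Expected counts on annotated genes were rounded and scaled by TMM (edgeR 4.0.16). DESeq2 1.42.0 gave alternative size factors, and total counts, spike-ins, kallisto-format and posterior mean counts were also tried. For a whole gene, the limit for a count of 0 was 3 counts (0.100 CPM in replicate 1, 0.0883 in replicate 2). Intervals cover counting error only. An exact paired test over 2 animals cannot go below p = 0.5. All 10 genes were named, with all paralogues, overlapping genes that held counts and transcripts of at least 10 IsoPct. The 3 most abundant genes of each other list were named, except for the fat cell and striated muscle lists. The members and lists were chosen with earlier results of these data known. A gene of the contractile apparatus list is not reported here.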

Additional observations from a re-analysis of the deposited data

How the results depend on the processing

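The 2 genes lower in replicate 2 stayed 2 under DESeq2 size factors, total counts, spike-in totals, kallisto-format counts, other count minimums and a 1.5-fold threshold, the last beside 3.72% of all genes. At 1.5-fold, 1 gene was higher instead of 0, beside 6.39% of all genes. Each of the 10 log2 ratios kept its sign under the 7 settings, the main one included. They ran from -1.65 to -1.54 for Acta2, from -1.28 to -1.18 for Tagln and from 0.74 to 0.82 for Rgs5. The settings scale the same 2 libraries by similar factors, so few signs could have turned. Actg2 and Cnn1 kept theirs too, although their intervals included equality. The number of genes detected, reported as 7, was 6 at a threshold of 2 TPM and 8 at 0.5 TPM. It was 9 with TPM taken over nuclear coding genes alone, where Lmod1 and Cnn1 also passed 1 TPM. Whether these 2 genes count as detected thus depends on the scale of TPM. The number of shared leading transcripts stayed within 1.5 times the reported value. Cnn1 lay above Lmod1 by posterior mean TPM, at 0.815 and 0.705. Among calponins and transgelins, 1 gene in place of 2 was lower by spike-in totals and by kallisto-format counts, Cnn2 being lost. TPM rescaled to coding genes alone raised the median from 9.00 to 24.0 TPM, by construction. No paired analysis was possible because there is 1 group of 2 animals. Depth limits Actg2 and Cnn1, and all differences rest on 1 animal on each side.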
